A study of Mus musculus with 2 samples.

Results

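The EGF ligands and ErbB receptors were examined in small intestinal epithelium grafted onto the mouse colon and in normal colonic epithelium. The 9 genes were chosen by family membership and not by their values, although earlier results of these data were known. They were the ligands Egf, Tgfa, Areg, Ereg, Btc and Hbegf and the receptors Egfr, Erbb2 and Erbb3. Each gene was represented by the brightest probe set annotated to that gene alone, and 8 of the 9 genes had such a probe set, among 17305 named genes in all. Areg was not analysed here.

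The graft came from small intestinal cells of EGFP-transgenic C57BL6 mice, cultured for 7 days as organoids, small epithelial structures that keep their own stem cells. The organoids were instilled into the colon of C57BL6 recipients, and the graft was taken 4 weeks later, whereas the colon sample came from a C57BL6 control mouse that the labels describe without a graft. Both epithelia were cut out by laser microdissection, and serial sections of a specimen were pooled before RNA was extracted. Of the available specimens, 1 graft and 1 colon sample were hybridised, each picked for its RNA integrity, so every value below describes 2 arrays and no difference has a replicate check or a p-value. The labels give no age or sex, and no ungrafted small intestine was analysed here.

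EGF-family ligands are made as membrane-anchored precursors and are released by surface proteases. They bind EGFR and its relatives, which pair with each other and signal through the RAS-ERK and PI3K-AKT cascades. ERBB2 has no known ligand of its own and acts as a partner, and ERBB3 has a weak kinase and depends on its partners. In the intestine, EGF signalling drives division of crypt stem and progenitor cells. Paneth cells, which secrete antimicrobial proteins at the crypt base of the small intestine, are a known source of EGF and TGF-alpha, and EGF is a usual additive of organoid culture.

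Hbegf was the only measured member at least 2-fold apart, at a higher level in the graft. The other 7 measured members were all lower in the graft than in the colon, by less than 2-fold, with Erbb2 and Erbb3 the farthest from 0. Among these 7, Egf, Tgfa, Egfr and Ereg differed by 0.30 or less on the log2 scale. Of the 8 genes, 1 was thus at least 2-fold higher and 0 were at least 2-fold lower, against 1.93% of the 17305 named genes that were higher and 3.09% that were lower. A filter on low values kept 6 of the 8 genes, those whose higher value reached 5.48, the median of all gene values. Among the 9392 genes that passed it, 3.55% were higher in the graft by 2-fold or more and 5.68% were lower. At any size of difference, 58.4% of those genes were at or below 0. The median log2 difference of the 8 members, graft minus colon, was -0.21, beside 0.00 for all named genes. With 1 count among 8 genes, these shares do not set the family apart from other genes.

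**Figure D1:**
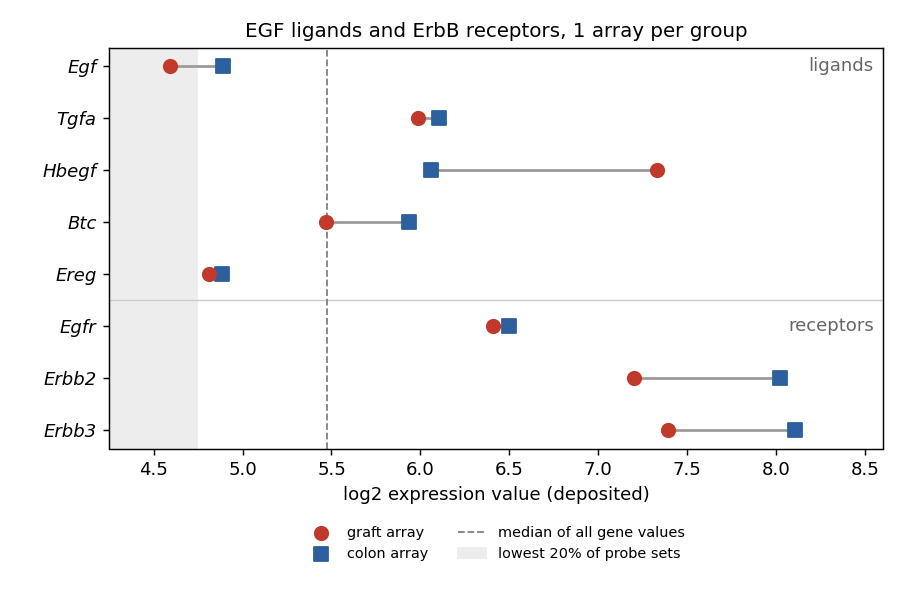
Deposited log2 expression value (x axis) of each measured ligand and receptor (rows) on the graft array (circles) and the colon array (squares), to be compared within a row. Hbegf, at 7.33 in the graft against 6.06 in the colon, has the longest line, Erbb2 and Erbb3 are lower in the graft, and Egf and Ereg lie near or inside the lowest 20% of probe sets (shaded).

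Technical error could be estimated only from genes with more than 1 probe set. For 586 genes with both of their 2 brightest probe sets at the median level or above, the log2 difference between the arrays had an SD of 0.48 from 1 probe set to the other, or 0.34 per probe set. This SD leaves out variation between animals and is too small if probe sets of a gene share probes. The difference of Hbegf was 3.77 times the SD per probe set, that of Erbb2 2.42 times and that of Erbb3 2.11 times. Btc was at 1.37 times that SD, and Egf, Tgfa, Egfr and Ereg were at 0.88 times or less. Of 31 genes in the range of Hbegf, with a difference of 1 to 2 in either direction, 26 had a second probe set with that direction, and 10 had one that reached 2-fold. Of 111 genes in the range of Erbb2 and Erbb3, with a difference of 0.5 to 1, 94 had a second probe set with that direction. Each of the 8 measured members had a single probe set that named it alone (n = 1 per gene), so none of them could be checked in this way.

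Among the ligands, Hbegf encodes heparin-binding EGF-like growth factor, which binds EGFR and ERBB4 and is induced rapidly by growth factors and by injury. Its log2 value was 7.33 on the graft array and 6.06 on the colon array, a difference of 1.27, or 2.41-fold (probe set 10458340). Both values lay above the median of all gene values. Of the 9392 genes that passed the filter, 227, or 2.42%, were as far or farther in the same direction.

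Btc encodes betacellulin, another ligand of EGFR and ERBB4. Its value was 5.47 in the graft against 5.93 in the colon, a difference of -0.46 (probe set 10531274). The graft value was just under the median of all gene values and the colon value above it. Tgfa encodes TGF-alpha, a ligand of EGFR alone. It was at 5.99 in the graft against 6.11 in the colon, a difference of -0.12 (probe set 10539692).

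Egf encodes the founding ligand of the family, and Ereg encodes epiregulin, a low-affinity ligand of EGFR and ERBB4. Egf was at 4.59 in the graft against 4.89 in the colon, a difference of -0.30 (probe set 10502105). The graft value lay below 4.75, the 20th percentile of that array, and the colon value just above the corresponding 4.74. Ereg was at 4.81 in the graft against 4.88 in the colon, a difference of -0.07 (probe set 10523175). No detection call came with the table, so levels this low cannot be separated from background, and for these 2 ligands the data do not show whether the transcript was present in either sample.

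The receptors were measured at levels above the median of all gene values on both arrays. Egfr, the receptor for all of the ligands above, was at 6.41 in the graft against 6.50 in the colon, a difference of -0.09 (probe set 10374366). Erbb2 was at 7.20 in the graft against 8.02 in the colon, a difference of -0.82, or 1.76-fold lower in the graft (probe set 10380896). Erbb3, which binds neuregulins and pairs with ERBB2, was at 7.39 in the graft against 8.11 in the colon, a difference of -0.71, or 1.64-fold lower (probe set 10373467). Among the 9392 genes that passed the filter, 8.26% were as far below 0 as Erbb2 or farther, and 10.9% as far as Erbb3. The partners Erbb2 and Erbb3 were therefore both lower in the graft by 2.42 and 2.11 times the SD per probe set, while Egfr differed by 0.27 times that SD.

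The value of Erbb2 rests on its own probe set. A second probe set, annotated to Erbb2 and to Sympk, a scaffold protein of mRNA 3' end processing, went the other way, at 7.89 in the graft against 6.69 in the colon, a difference of 1.20. The 3 probe sets that named Sympk alone had differences of 0.52, 0.51 and 0.00. Which transcript the shared probe set measured was not tested, and it was left out of the Erbb2 value.

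**Figure D2:**
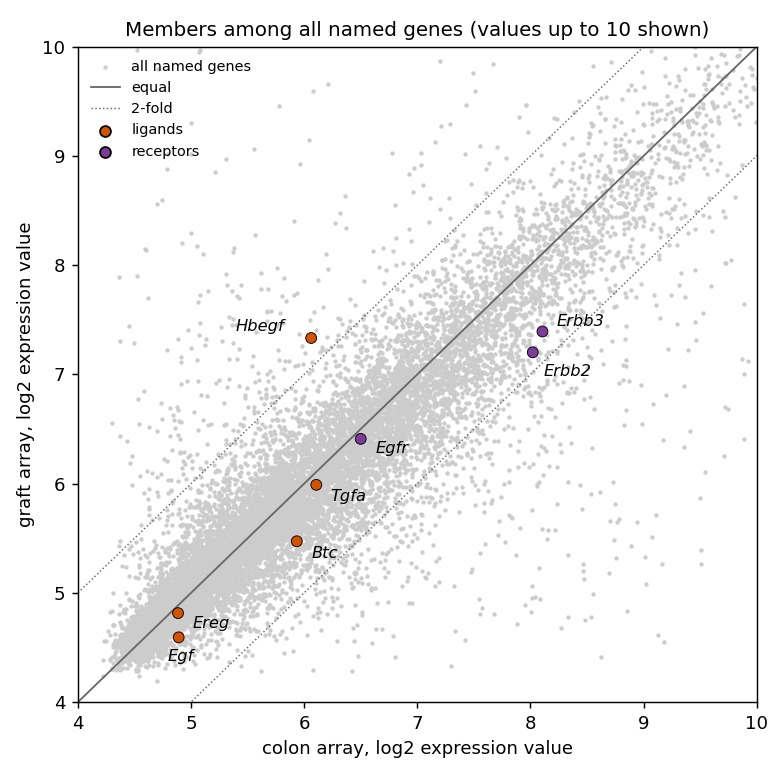
Log2 expression value on the graft array (y axis) against the colon array (x axis) for all named genes (grey) and the 8 measured members (ligands orange, receptors purple), with lines for equal values and for 2-fold. Hbegf lies above the upper 2-fold line at 7.33 against 6.06, while Erbb2 and Erbb3 lie below the line of equal values and inside 2-fold.

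The gene whose pair of values was closest to that of Hbegf was Nfkbiz, a nuclear inhibitor-of-kappa-B protein, at 7.32 in the graft against 6.08 in the colon. The next were Clec2e, at 7.41 and 6.11, and Tmem263, at 7.26 and 5.98. Closeness was the Euclidean distance over the 2 arrays, 0.023, 0.087 and 0.11 in that order, and 2 points per gene do not define a pattern.

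The rest of the EGF family lay low on both arrays. Epgn encodes the ligand epigen, and Erbb4 is the fourth receptor of the family. Nrg1 to Nrg4 encode the neuregulins, which bind ERBB4 and in some cases ERBB3. Of these 6 genes, 0 reached the median level and 0 differed by 2-fold, and 4 were below the 20th percentile on each array. Erbb4 was at 4.56 in the graft against 4.64 in the colon, and Epgn at 4.65 and 4.72. Nrg1 was at 5.19 in the graft and 0.19 lower in the colon, Nrg2 at 4.99 and 4.80, and Nrg3 at 4.61 and 4.58. Nrg4 had exactly the same value, 4.72, on both arrays, as did 12.6% of all named genes. For these 6 genes too, a level cannot be separated from background.

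Genes of the pathway around the receptors were taken from lists by role, which held 99 measured genes besides the members. The graft exceeded the colon by at least 2-fold for 3 of them, 3.03%, and fell short of it by at least 2-fold for 5, 5.05%. These shares were above the 1.93% and 3.09% of all named genes and close to the 3.55% and 5.68% of genes that passed the filter, which 83 of the 99 did. The 3 higher genes were Sh3kbp1, Atf3 and Dusp6, and the 5 lower genes were Timp3, Ptprj, Rhbdl2, Lrig3 and Pik3r3.

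Of 11 measured genes for the release of membrane-anchored ligands, 2 were lower in the graft by 2-fold or more and 0 were higher, and the median difference was -0.15. Timp3, an inhibitor of metalloproteases that include ADAM17, was at 5.15 in the graft against 7.07 in the colon, 3.78-fold lower. Rhbdl2, a rhomboid protease of the cell membrane, was at 5.30 and 6.59, 2.45-fold lower. The main sheddases went in different directions by less than 2-fold. Adam17, the protease that releases HB-EGF, TGF-alpha, amphiregulin and epiregulin, had a difference of -0.51, at 6.20 against 6.71. Adam10, which releases EGF and betacellulin, had a difference of 0.28, at 7.89 against 7.61. Rhbdf1 and Rhbdf2, the inactive rhomboids that ADAM17 needs to mature, had differences of 0.14 each.

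Of 28 negative regulators of ErbB signalling, 2 were higher in the graft by 2-fold or more and 2 were lower, and the median difference was -0.23. Sh3kbp1, an adaptor that works with CBL in the internalisation of receptors, was at 7.22 in the graft against 5.76 in the colon, 2.75-fold higher. Dusp6, a phosphatase that inactivates ERK and is itself induced by ERK signalling, was at 8.13 and 6.78, 2.55-fold higher. In the other direction, the receptor-type phosphatase gene Ptprj was at 7.31 and 8.72, 2.67-fold lower, and its second probe set was 2.64-fold lower. Lrig3, a membrane protein related to Lrig1, was at 6.18 and 7.27, 2.12-fold lower. The other feedback inhibitors went in both directions by less than 2-fold. Spry2 had a difference of -0.87, Spry4 of 0.23 and Spry1 of 0.00, while Errfi1, an inhibitor of the EGFR kinase, had a difference of -0.42 and Lrig1, which marks crypt stem cells and lowers ErbB receptor levels, of -0.44. Dusp4 and Dusp5 had differences of 0.66 and 0.24.

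In the cascades below the receptors few genes reached 2-fold, and lists this small do not set them apart from other genes. None of the 16 measured adaptors and RAS-ERK cascade genes was 2-fold apart, and their median was -0.18. The farthest from 0 on either side were Map2k1, the kinase MEK1, at 6.91 in the graft against 7.89 in the colon, and the scaffold gene Ksr1, at 5.98 and 5.34. The related kinase gene Map2k2 had a difference of 0.61, opposite to that of Map2k1, which was -0.98. Of 18 genes of the PI3K-AKT, STAT, SRC and PLC branches, 1 was 2-fold lower and 0 were higher, with a median of -0.03. That gene was Pik3r3, a regulatory subunit of PI3K, at 6.49 and 7.57, 2.12-fold lower.

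Genes known to be induced by ERK signalling went in both directions. Of 20 measured genes, 10 were above 0 and 10 below, 1 passed 2-fold toward the graft and 0 toward the colon, and the median was 0.05. Atf3, a stress-induced transcription factor, was at 8.33 in the graft against 6.92 in the colon, 2.65-fold higher. Egr1 had a difference of 0.71, Ccnd1 of 0.61, Myc of 0.59 and Fos of 0.48. On the other side, Klf6 had a difference of -0.85, Ier2 of -0.84 and Jun of -0.66, and the ERK-dependent ETS factors Etv4 and Etv5 had differences of -0.36 and 0.17. Several of these genes also respond to tissue handling, as Hbegf does, and the part of handling in these values was not tested.

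**Figure D3:**
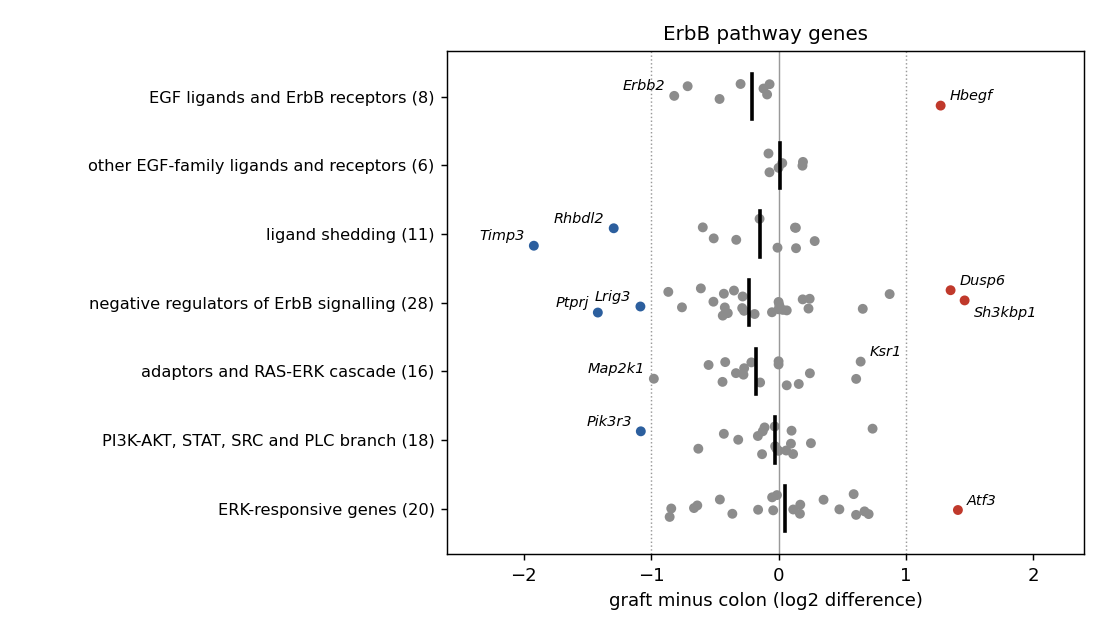
Log2 difference, graft minus colon (x axis), of every measured member and pathway gene (points), by role (rows, with the number of genes), with the row's median (black bar) and dotted lines at 2-fold; vertical scatter within a row has no meaning. Hbegf at 1.27, Sh3kbp1 at 1.46, Dusp6 at 1.35 and Atf3 at 1.41 lie beyond the upper line and 5 genes beyond the lower one, while the medians lie between -0.23 and 0.05.

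The labelled tissues were compared with their markers. The graft was higher by 2-fold or more for all 8 small intestinal enterocyte markers, with a median difference of 5.50, and all 8 markers of colonic absorptive cells were lower, with a median of -4.13. On the array where they were low, 3 of the former and 2 of the latter lay below the 20th percentile, so their differences may be understated. The 10 general epithelial markers had a median of 0.47, and 0 of them were 2-fold apart. In a bulk sample, fewer cells of a type and less RNA per cell cannot be told apart.

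Paneth cell markers are of interest beside Egf and Tgfa. Of 7 measured markers, 5 were higher in the graft by 2-fold or more, and the median difference was 4.31. Pla2g2a had a difference of 0.67 and Nupr1 of -0.65. On the colon array Defa24 lay below the 20th percentile and Mmp7 and Ang4 just above it, so the differences of these genes may be understated. On the same arrays Egf and Tgfa had differences of -0.30 and -0.12. The Egf value in the graft lay below the 20th percentile, where it cannot be separated from background. The median of 8 crypt stem cell markers was 0.02, with Olfm4 at 5.09 and Lgr5 and Aqp4 at -1.38 each. The colon value of Olfm4 was below the 20th percentile, so its difference may be understated too.

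Markers of cells that microdissection can carry along were measured beside Hbegf, Erbb2 and Erbb3. Of 15 leukocyte markers, 0 differed by 2-fold and 12 were above 0, with a median of 0.13 and a summed linear level 1.18 times that of the colon. The 3 with the highest differences were the pan-leukocyte gene Ptprc at 0.78, Fcer1g at 0.75 and C1qb at 0.73. Among other markers of myeloid cells, Cd68 was at 0.55, C1qa and Ly86 at 0.39 each and Itgam at 0.22. Itgax was at 0.12, Csf1r at 0.05, Lyz2 at -0.12 and Adgre1 at -0.23. Itgam, Itgax, Csf1r and Adgre1 did not reach the median level. Of the 15 leukocyte markers, 8 reached it. Csf1r, Cd3e, Laptm5, Itgax and Cd79a were above 0 by 0.13 or less. For comparison, 58.4% of the 9392 genes that passed the filter were at or below 0. Of 13 fibroblast and smooth muscle markers, 1 was 2-fold lower and 10 were below 0, with a median of -0.22 and a summed linear level of 0.77 times that of the colon. Of 7 endothelial markers, 1 was 2-fold higher, Egfl7 with a difference of 1.23, and the median was -0.07. Egfl7 was also the only endothelial marker that reached the median level. The 4 measured markers of neurons and glia had a median of 0.05, and 0 of them reached the median level. HB-EGF is also made by myeloid cells, and the part of these cells in the Hbegf difference was not tested.

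**Figure D4:**
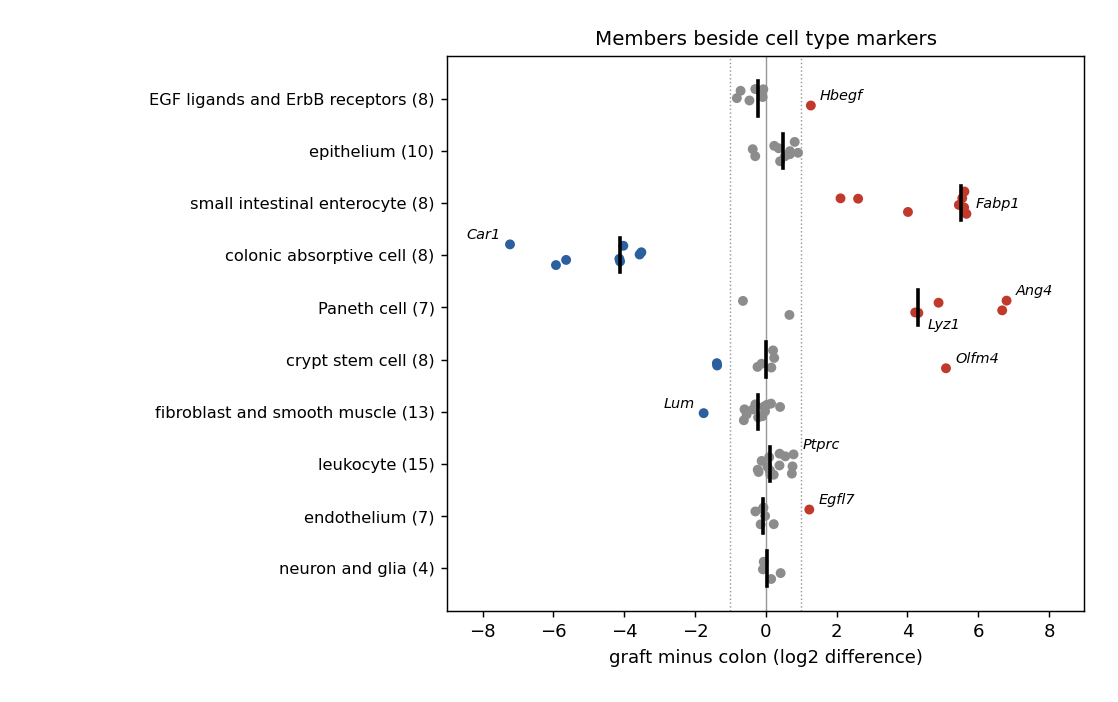
Log2 difference, graft minus colon (x axis), of the measured members and of cell type markers (points; rows give the list and its number of genes), with each row's median (black bar) and dotted lines at 2-fold. The members lie between -0.82 and 1.27, a narrower range than the enterocyte, colonic and Paneth cell markers, whose medians are 5.50, -4.13 and 4.31.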

How the data were processed

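Single-channel arrays of 2 samples were used, 1 graft and 1 colon. The deposited values are log2 expression levels, a scale inferred from their range of 4.19 to 13.46. The sources used here name no software, background correction or normalization for them. Whether arrays were centred is unknown; array medians were 5.44 (graft) and 5.43 (colon). Per the labels' protocols, 4.33 ng of RNA was amplified for each sample, which can distort single transcripts.

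Of 24074 probe sets, 18904 named 1 gene in the platform's annotation, 1330 several and 3840 none; only the first kind was used for genes. Each gene was represented by its brightest probe set, by the mean over both arrays. RefSeq's gene table of GRCm38.p6 held the Entrez identifiers of 18837 of these probe sets and was used for names and gene order only.

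Differences are graft minus colon, with no further normalization and no test, since 1 array per group leaves no residual degree of freedom and limits precision. A gene was counted at 2-fold (a log2 difference of 1). The members and 15 gene lists (6 of pathway roles, 9 of cell types) were chosen with earlier results of these data known. Named genes were all members, the other family genes, pathway genes at least 2-fold apart that reached the median level on 1 array (or the farthest 2 of a list with none), and the 3 genes closest to a 2-fold member; other genes were named after their values were seen. Alternatives were another choice of probe set, quantile normalization, centring, a floor at the 20th percentile, a filter on low values and other fold thresholds. The procedures were tested on simulated data. Python 3.11.15, numpy 2.4.6 and pandas 2.3.3 were used.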

Additional observations from a re-analysis of the deposited data

Results flagged for a closer look

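The probe set annotated to both Erbb2 and Sympk was set aside from the gene values, yet it had a signal 1.20 higher on the log2 scale on the graft array than on that of the control colon, opposite to the -0.82 of the probe set for Erbb2 alone.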

How the results depend on the processing

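The differences of the 8 members moved by less than 0.34, the SD per probe set, under quantile normalization and centring of each array. The 2 arrays already had nearly the same distribution, with sorted values at most 0.25 apart. Neither setting could therefore have moved a difference as far as that SD. Hbegf stayed between 1.27 and 1.33. Averaging of probe sets could not change the members, since each has a single probe set. A floor at the 20th percentile could change only Egf, which went from -0.30 to -0.14. Medians of the 6 pathway lists also moved by less than that SD under all of these settings. At 1.5-fold, 2 members, Erbb2 and Erbb3, were lower in the graft, and at 4-fold 0 members were higher. At 1.5-fold, 4 negative regulators were higher and 5 lower, 2 adaptor and RAS-ERK genes were higher and 1 lower, 1 gene of the PI3K-AKT, STAT, SRC and PLC branches was higher and 2 were lower, and 5 ERK-responsive genes were higher and 4 lower. The second brightest probe set exists only for genes with several, and no member has one. In the pathway lists these were Ptprj, Spred2 and Ptpn2 of the negative regulators, Akt2 of the PI3K list and Etv5 of the ERK-responsive genes. With it, 0 negative regulators were 2-fold higher and 1, Ptprj, was lower. In that setting 0 genes of the PI3K list were lower and 0 ERK-responsive genes higher. Sh3kbp1, Dusp6, Lrig3, Pik3r3 and Atf3 have a single probe set each, so these counts could not check them. No paired analysis was possible because each group has 1 array. Amplification from small amounts of RNA and the lack of a detection call limit every value.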

Other observations

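The genes next to the members in RefSeq order were compared after the main values were seen, and no test was made. Epgn, Ereg, Areg and Btc follow each other along the genome. The measured genes among them differed by -0.07, -0.07 and -0.46, whereas Parm1, the gene beyond Btc, was at 7.12 in the graft against 9.93 in the colon, a difference of -2.80. Erbb2 lies between Pgap3 and Mien1, with Grb7, which encodes an adaptor that binds ERBB2, after Mien1. Mien1 was at 7.25 in the graft against 8.50 in the colon, a difference of -1.24, and Grb7 had a difference of -0.42, the same direction as the -0.82 of Erbb2, while Pgap3 had a difference of 0.015. Elovl6, a fatty acid elongase gene next to Egf, was at 9.03 in the graft against 7.04 in the colon, a difference of 1.99. Pfdn1 and Slc4a9, on either side of Hbegf, had differences of -0.023 and 0.0068.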
